A study of Mus musculus with 6 samples.

Results

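A group of 44 genes was followed in RNA-seq libraries of U14, a mouse cervical carcinoma cell line, sequenced with and without overexpression of the forkhead transcription factor FOXP1. The members are the listed genes whose gene ontology annotation carries the term "immune system process" but not "adaptive immune response". MHC genes (symbols beginning with H2-) and 14 genes named in the rule were left out, which removed 9 genes that met the annotation rule. The members make up 44 of the 1722 genes in the authors' deposited table of differences, and 44 of the 125 with the immune term, of which 72 also carried the adaptive term. The groups were U14 cells overexpressing FOXP1 (libraries 2, 3 and 4, called the overexpression libraries) and wild-type U14 cells (libraries 1, 2 and 3). No other allele, agent or time point is given for either group, nor how FOXP1 was introduced, nor whether the overexpressing cells were 1 clone.

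Innate immunity recognises microbes and damaged cells through receptors encoded in the germ line. Complement proteins tag particles for uptake, Toll-like and C-type lectin receptors sense them at membranes, and cytosolic sensors assemble inflammasomes that activate inflammatory caspases. Many receptors of myeloid and natural killer cells carry no signalling motif of their own and pair with adaptors such as DAP12, while related receptors recruit phosphatases that restrain them. Carcinoma cells themselves can make complement and guanylate-binding proteins, whereas most of the paired receptors are typical of leukocytes.

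Every listed gene had been selected by the authors for a fold of at least 2 and a q-value under 0.05, so each member had to be called in one direction. According to the authors' deposited table, a total of 42 members were higher and 2, Cd300e and Cd177, were lower, which is 95.45% higher against 87.4% of all listed genes. Of the 15689 genes the authors tested, 9.59% were listed as higher and 1.38% as lower. The authors' log2 fold of the 42 higher members ran from 1.0 to 2.39 with a median of 1.33, and 9 of them lay under 1.1. Over all 44 the median was 1.30, against 1.38 over all listed genes and 1.5 over the 72 immune genes with the adaptive term.

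Library totals ran from 16824351 to 20410060 fragments in overexpression and from 17994311 to 18668395 in wild type. No check of the labels by the level of Foxp1 was made, since that gene is not listed. Markers of leukocytes and fibroblasts were present in both groups, although the label is that of a carcinoma line. The sums that follow take only the markers in the authors' list, each called in 1 direction by them, and leave out those not listed, so that the direction of each sum follows from that selection. The summed level of 12 of 15 T cell markers was 272 to 312 FPKM in overexpression libraries and 59.1 to 106 FPKM in wild-type libraries. For 3 of 12 macrophage markers the sums were 5482 to 7592 FPKM in overexpression and 1052 to 1655 FPKM in wild type, and for 4 of 9 fibroblast markers 448 to 734 FPKM in overexpression and 166 to 192 FPKM in wild type. The summed markers of B cells (8 of 9 listed) were at 112 to 287 FPKM in overexpression and 25.5 to 49.5 FPKM in wild type, those of natural killer cells (4 of 8) at 73.7 to 97.3 FPKM in overexpression and 25.5 to 45.8 FPKM in wild type, and those of mast cells (4 of 7) at 12.9 to 34.8 FPKM in overexpression and 6.32 to 12.8 FPKM in wild type. For dendritic cells (5 of 10) the ranges met, at 38.0 to 98.9 FPKM in overexpression and 16.5 to 38.9 FPKM in wild type. Epithelial markers (3 of 9 listed, 1 higher and 2 lower) summed to 141 to 177 FPKM in overexpression and 326 to 398 FPKM in wild type. Of the 8 endothelial markers 1 was listed, Prox1, at 0.0800 to 0.339 FPKM in overexpression libraries and at 0 to 0.0389 FPKM in wild-type libraries. Each of the other markers counted was above 0 in all 6 libraries. In bulk RNA, fewer cells of a type and less RNA per cell cannot be told apart, and the part of these cell types in the results below was not tested.

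The main test was limma's moderated test on log2(FPKM + 1), where FPKM is fragments scaled to transcript length and to library total, with Benjamini-Hochberg adjustment over all 1722 listed genes. A gene is said to have risen or fallen when its adjusted p was under 0.05 and its log2 difference at least 1, both on that scale, which understates the change of genes near or under 1 FPKM. By this rule 27 members rose and 1 fell, against 36.5% of all listed genes higher and 4.12% lower. All 44 had an adjusted p under 0.05, so the 16 others missed the fold alone. The authors had selected the listed genes by fold and q-value from these same libraries. A small adjusted p, here and below, is therefore no independent support. Limma's voom on the rebuilt fragment counts, an alternative chosen after the data had been seen, called 39 members higher and 2 lower, where 81.6% and 12.4% of all listed genes were so called. In 42 members the groups did not overlap, and the same held for 93.0% of all listed genes. The median log2 difference was 1.03 over the members and 0.83 over all listed genes.

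Because 87.4% of the listed genes were higher, centring each library on the median of the listed genes took away a shift of 0.81 on the log2 scale. On that relative scale 33 of the 44 members lay above 0, against 878 of the 1722 listed genes. Limma called 0 members higher (10 at an unadjusted p under 0.05, whatever the fold) and 2 lower. The shares of all listed genes called on that scale were not worked out. C3, Clec4e, Pld3 and Prkcq had a limma adjusted p under 0.05 there but missed the fold, at 0.98, 0.82, 0.67 and 0.58. Wild-type library 1 weighed most on the counts. Without it limma called 15 members higher in place of 27, and voom 25 in place of 39, counts not worked out for all listed genes. In 33 of the 42 higher members (78.6%) it was the lowest of the wild-type libraries, as it was in 62.9% of all listed genes that were higher.

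**Figure D1:**
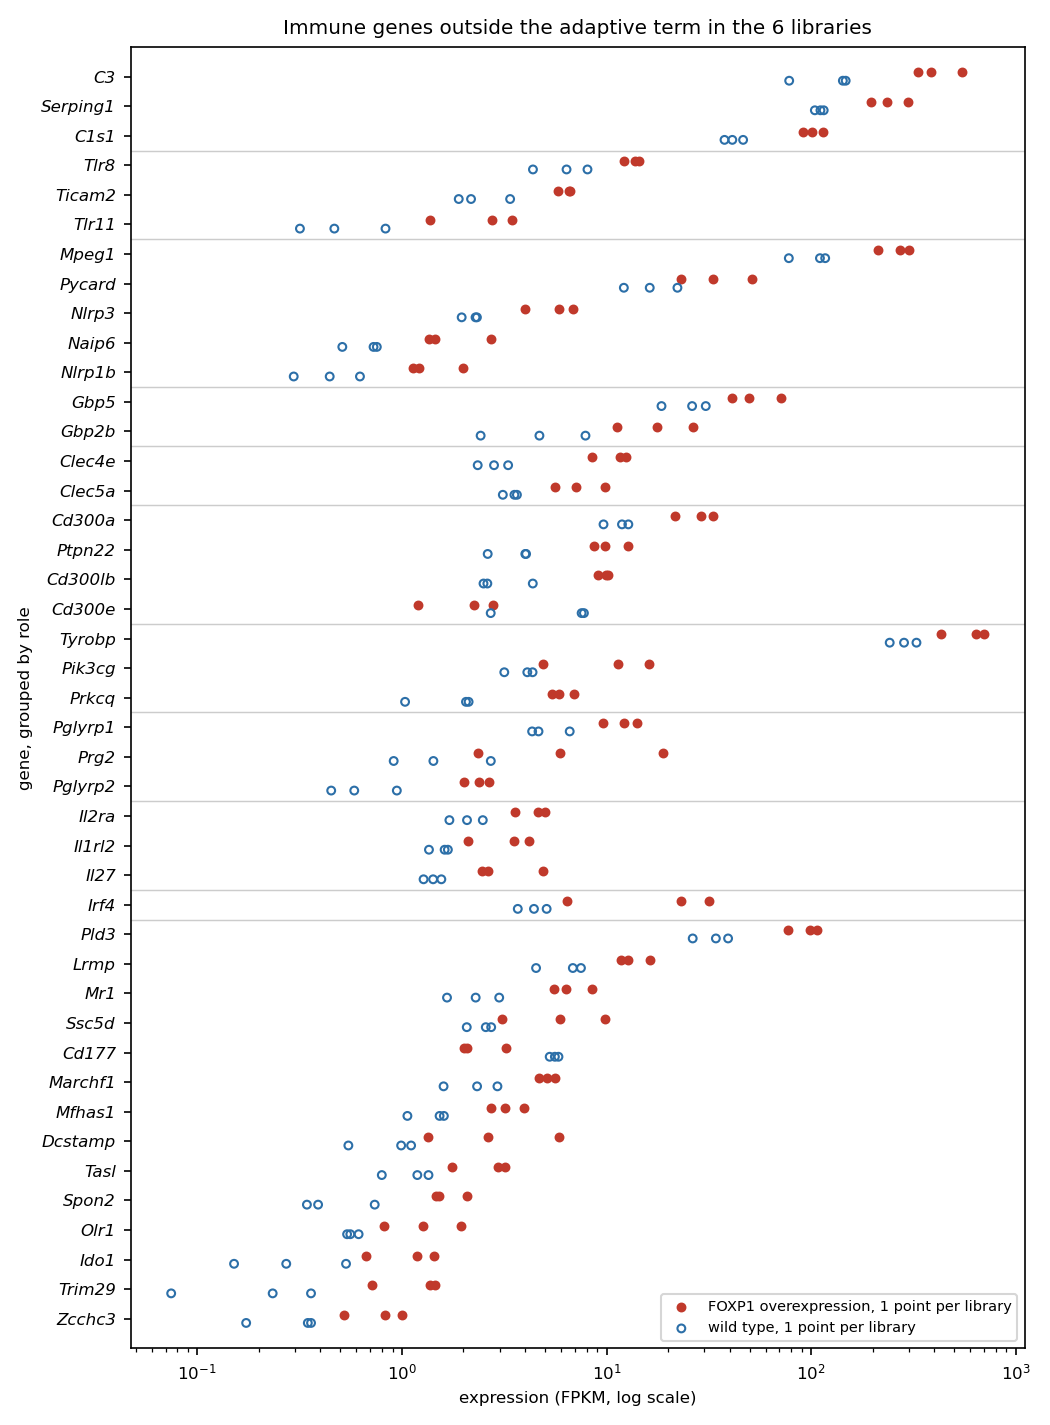
Level of 43 of the 44 members in FPKM (log axis) in the 3 overexpression libraries (filled red points) and the 3 wild-type libraries (open blue points), 1 point per library, with genes grouped by role from complement at the top. The red points lie to the right of the blue ones in all genes but Cd300e, Cd177 and Prg2. In Prg2 the groups overlap. After centring on the median of the listed genes, Il2ra, Il1rl2, Il27, Naip6, Nlrp1b, Tasl, Olr1, Ido1 and Zcchc3 also lay below 0. None of these 9 genes had a limma adjusted p under 0.05 there.

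Promoter sequence was available for 31 of the 44 members, as RefSeq windows on GRCm38.p6 of 250 bases before to 50 bases after each start (38 windows). They were searched on both strands for 4 motifs chosen for FOXP1 and for factors of myeloid cells and innate signalling. The forkhead core TGTTTAC was found in 3 of 31 members (9.68%), in 4.32% of listed genes and in 4.05% of all 27025 genes with a window. The PU.1 core GAGGAAGT was found in 4 members (12.9%), against 5.64% of listed genes and 3.69% of all. The interferon response core GAAANNGAA stood in 5 members (16.1%), against 10.7% and 9.76%, and the kappa B core GGGANNTTC in 4 (12.9%), against 4.79% and 4.47%. These counts are descriptions of letters in a window and show no binding.

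The stretches below show where the motifs stood in members described further on: the forkhead core in Cd177, 1 of the 2 members that were lower, the PU.1 core in 3 sensors and adaptors, the interferon core in the 2 guanylate-binding protein genes and Tlr8, and the kappa B core in Gbp5 and a peptidoglycan recognition gene. Capitals mark the motif or its reverse complement, each with up to 20 bases on either side, 5′ to 3′ on the strand of the gene. No 2 of the matches printed overlap. Only some matches are printed. Cd177 was 1 of 3 members with the forkhead core, and the others are left out. Also left out are interferon core matches in Pld3 and Tlr11, and kappa B core matches in Clec5a, Pglyrp2 and elsewhere in Gbp5.
Cd177, forkhead core, chr7:24760529-24760561, minus strand: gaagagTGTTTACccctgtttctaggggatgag
Pycard, PU.1 core, chr7:127993884-127993931, minus strand: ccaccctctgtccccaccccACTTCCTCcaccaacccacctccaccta
Nlrp1b, PU.1 core, chr11:71230802-71230849, minus strand: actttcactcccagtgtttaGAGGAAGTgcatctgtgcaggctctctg
Tlr11, PU.1 core, chr14:50357761-50357808, plus strand: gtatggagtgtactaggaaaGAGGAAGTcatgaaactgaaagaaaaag
Gbp5, interferon response core, chr3:142496750-142496798, plus strand: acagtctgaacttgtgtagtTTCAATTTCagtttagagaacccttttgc
Gbp2b, interferon response core, chr3:142594691-142594739, plus strand: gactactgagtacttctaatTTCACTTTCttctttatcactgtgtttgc
Tlr8, interferon response core, chrX:167264368-167264416, minus strand: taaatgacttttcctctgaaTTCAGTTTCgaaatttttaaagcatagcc
Gbp5, kappa B core, chr3:142496838-142496886, plus strand: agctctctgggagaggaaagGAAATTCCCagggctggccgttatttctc
Pglyrp1, kappa B core, chr7:18884578-18884626, plus strand: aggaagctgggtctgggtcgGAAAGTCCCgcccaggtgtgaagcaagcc

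The complement members C3, C1s1 and Serping1 rose, and all 3 stayed above 0 after centring. C3 (Entrez 12266) encodes the protein on which all complement pathways converge, and it stood at 333, 545 and 383 FPKM in overexpression libraries 2, 3 and 4, against 78.1, 143 and 147 FPKM in wild-type libraries 1, 2 and 3. Its lowest overexpression library was more than double its highest wild-type library. The log2 difference was 1.79 (SE 0.31, limma adjusted p = 0.00311), and 0.98 after centring. Serping1 (Entrez 12258), the C1 inhibitor that blocks the first proteases of the classical pathway, stood at 196, 235 and 296 FPKM in overexpression libraries and at 104, 115 and 111 FPKM in wild-type libraries. C1s1 (Entrez 50908), a serine protease of the C1 complex, had 91.1, 101 and 114 FPKM with overexpression and 37.7, 46.5 and 41.2 FPKM in wild type. C1s1 was tight in both groups and Serping1 in wild type, while the overexpression libraries of Serping1 spread over a ratio of 1.52. The log2 differences were 1.11 (SE 0.21, adjusted p = 0.00346) for Serping1 and 1.27 (SE 0.20, adjusted p = 0.00306) for C1s1. So both activating components and an inhibitor were higher together, and the authors' deposited table gives them log2 folds of 1.72 for C3, 1.22 for C1s1 and 1.07 for Serping1. After centring Serping1 was at 0.30 and C1s1 at 0.46.

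Overexpression library 2 was the lowest of its group for these 3 complement genes, and for 18 of the 42 higher members in all, as was library 3 for another 18. The fibroblast marker sum was also lowest in that library, at 448 FPKM against 530 and 734 FPKM in libraries 3 and 4. So were the sums of T cell, natural killer, dendritic, mast cell and epithelial markers and the neutrophil marker Retnlg. The sums of B cell and plasma cell markers and the endothelial marker Prox1 were highest there, and macrophage markers were lowest in library 4. The part of any of these cell types in the complement values was not tested. With overexpression library 4 left out, the log2 difference of Serping1 was 0.95, under the threshold, while C3 and C1s1 kept their calls without any 1 library. Of 42 genes on a complement list, 5 were listed, all higher, and limma called 4 of these. This list and the other role lists were chosen with earlier results of these data known, so their counts are no independent support. The complement counts are to be read beside the 9.59% of all genes the authors tested that were listed as higher. Of all listed genes 87.4% were higher, and limma called 36.5% higher. The 37 other genes of the complement list, among them C4b, C1qa and Cfb, are not listed and were not analysed here.

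The Toll-like receptor group had 3 members, and all 3 rose. Tlr8 (Entrez 170744), an endosomal receptor for RNA fragments, was at 13.9, 12.2 and 14.4 FPKM in overexpression libraries and 4.37, 6.38 and 8.07 FPKM in wild-type libraries. The overexpression values were close together, and the wild-type values lay further apart, all below them. Tlr11 (Entrez 239081), which in mice recognises protozoan profilin, was far lower, at 1.37, 3.44 and 2.74 FPKM with overexpression and at 0.318, 0.468 and 0.832 FPKM in wild type. Ticam2 (Entrez 225471), also called TRAM, the adaptor that carries the TLR4 signal from endosomes, had 5.81, 6.57 and 6.64 FPKM in overexpression and 1.90, 2.18 and 3.38 FPKM in wild type. Its overexpression libraries differed by a ratio of only 1.14.

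Limma gave log2 differences of 1.02 for Tlr8 (SE 0.24, adjusted p = 0.0053), 1.16 for Tlr11 (SE 0.25, adjusted p = 0.0045) and 1.1 for Ticam2 (SE 0.22, adjusted p = 0.00367). After centring they were 0.21, 0.35 and 0.29. All 3 lay near the threshold of 1. Tlr8 fell short of it without wild-type library 1 (0.82) or overexpression library 4 (0.98), Ticam2 without wild-type library 1 (0.97), and Tlr11 without overexpression library 3 (0.97). In the authors' deposited table the log2 fold of Tlr11, 2.16, was among the 3 largest of members with a mean of at least 1 FPKM, whereas that of Tlr8 was 1.04. Of 34 genes on the list of receptors and adaptors, 4 were listed, all higher and all called, where 9.59% of all genes the authors tested were listed as higher. The fourth was Unc93b1, the chaperone of endosomal Toll-like receptors. Limma called 36.5% of all listed genes higher. Tlr2, Tlr4 and Myd88 are not listed. Tasl (Entrez 71398), an adaptor that links endosomal Toll-like receptors to IRF5, is outside that list. It had 3.18, 1.75 and 2.94 FPKM with overexpression and 0.798, 1.19 and 1.35 FPKM in wild type, a log2 difference of 0.76 that missed the fold and was -0.04 after centring.

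Among cytosolic sensors and pore formers, Mpeg1, Pycard and Nlrp3 rose, while Naip6 and Nlrp1b missed the fold and lay just below 0 after centring (-0.06 and -0.07). Mpeg1 (Entrez 17476), perforin-2, a pore-forming protein of phagocytes, was the most abundant, at 301, 212 and 270 FPKM in overexpression libraries against 77.8, 110 and 117 FPKM in wild-type libraries. Its log2 difference was 1.36 (SE 0.24, adjusted p = 0.00311), and it was called without each library in turn. Pycard (Entrez 66824), the adaptor ASC on which inflammasomes assemble, had 51.6, 33.1 and 23.1 FPKM with overexpression and 12.2, 16.3 and 22.2 FPKM in wild type. Overexpression library 4 and wild-type library 3 nearly met. Its log2 difference was 1.01 (SE 0.33, adjusted p = 0.0193), and it was 0.72 without overexpression library 2 and 0.81 without wild-type library 1, under the threshold in both cases. Voom on all 6 libraries placed it at 0.99 and did not call it.

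Nlrp3 (Entrez 216799), the inflammasome sensor of ion fluxes and membrane damage, had 6.84, 3.98 and 5.86 FPKM in overexpression libraries and 1.96, 2.33 and 2.29 FPKM in wild-type libraries. The wild-type values were tight and the overexpression values were all above them. Limma gave 1.02 (SE 0.22, adjusted p = 0.0045), which dropped under 1 without overexpression library 2 (0.87) or 4 (0.97) or wild-type library 1 (0.96). Naip6 (Entrez 17952), of the NAIP family of sensor proteins, had 1.44, 1.36 and 2.72 FPKM with overexpression against 0.512, 0.727 and 0.754 FPKM in wild type. Nlrp1b (Entrez 637515), the sensor cleaved by anthrax lethal factor in susceptible mouse strains, had 1.13, 1.22 and 1.98 FPKM in overexpression and 0.296, 0.444 and 0.624 FPKM in wild type. For both, the groups did not overlap, and voom, which does not compress low values, called them at 1.35 and 1.62. Both belong to families of near-identical copies in the mouse, and how the authors' counting divided shared reads is not given in the sources used here. Of 44 genes on this list 6 were listed, all higher, where 9.59% of all genes the authors tested were listed as higher. Limma called 3 of the 6, beside 36.5% of all listed genes called higher.

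Both guanylate-binding protein genes rose. These interferon-induced GTPases attack membranes around pathogens inside the cell. Gbp5 (Entrez 229898) had 49.6, 41.2 and 71.5 FPKM in overexpression libraries and 18.6, 26.2 and 30.5 FPKM in wild-type libraries, a log2 difference of 1.07 (SE 0.28, adjusted p = 0.00764). Gbp2b (Entrez 14468) had 11.3, 26.5 and 17.6 FPKM in overexpression and 2.43, 4.70 and 7.89 FPKM in wild type, a log2 difference of 1.73 (SE 0.41, adjusted p = 0.0055). Neither gene's groups overlapped, and Gbp2b was the more variable in both. After centring the values were 0.26 and 0.92. Gbp5 was under the threshold without overexpression library 4 (0.85) or wild-type library 1 (0.87). They lie close together on chromosome 3, with 2 coding genes between them in the RefSeq order of GRCm38.p6, and members of this family are similar enough that reads may have been shared. Of 58 interferon-induced antiviral genes on the list these and Gbp8 were listed, all 3 higher and all called, and 55 were not listed. Beside this, 9.59% of all genes the authors tested were listed as higher, and limma called 36.5% of all listed genes higher.

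**Figure D2:**
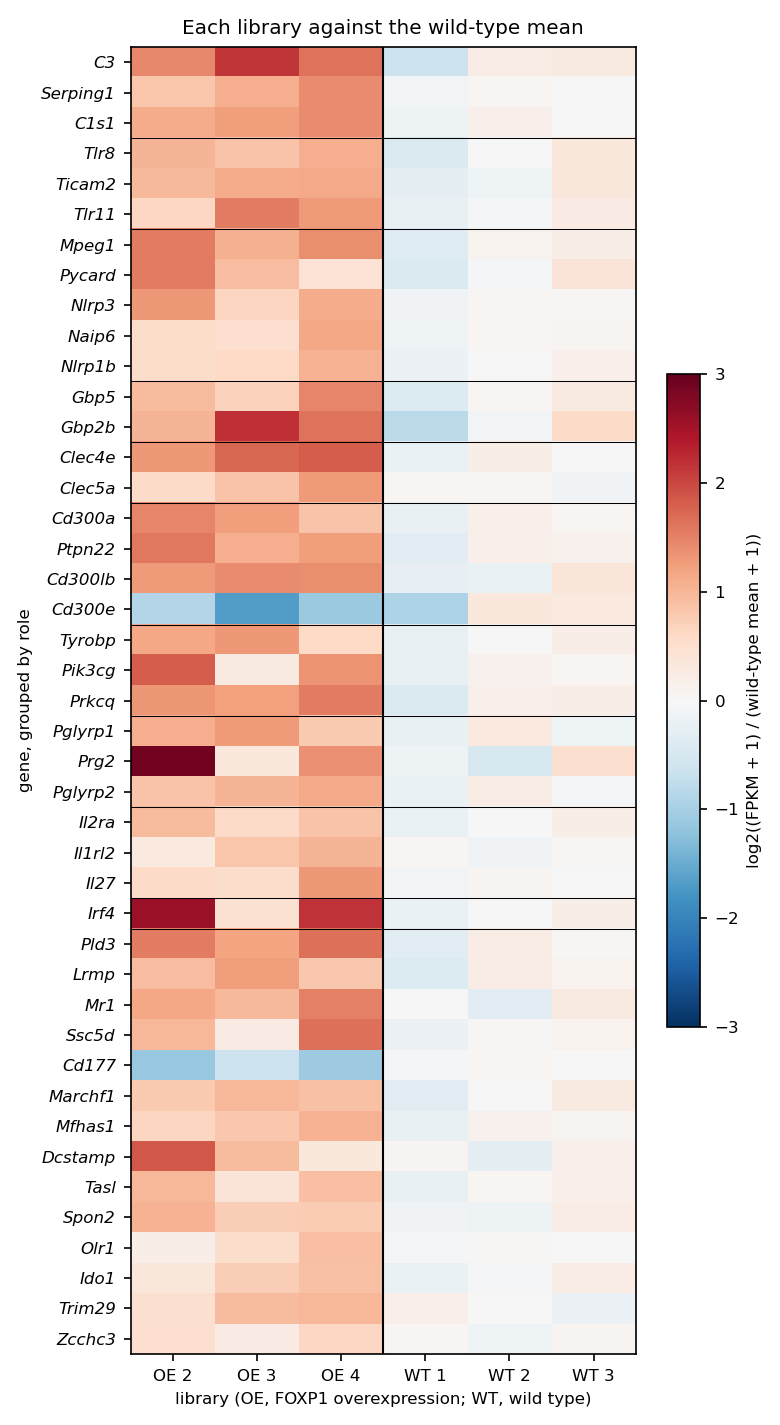
For 43 of the 44 members (rows, grouped by role), the log2 ratio of FPKM + 1 to the wild-type mean + 1 in the 3 overexpression libraries (left of the line) and the 3 wild-type libraries (right), red for higher and blue for lower. Rows are red on the left except for Cd300e and Cd177, wild-type library 1 is mostly the bluest of its group, and Prg2 and Irf4 are darkest in overexpression library 2. On the centred scale Il2ra, Il1rl2, Il27, Naip6, Nlrp1b, Tasl, Olr1, Ido1 and Zcchc3 turned to below 0, none with a limma adjusted p under 0.05.

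Receptors of the CD300 family did not move as one. Cd300a, Cd300lb and Cd300e lie in a single gene cluster on chromosome 11, the first 2 next to each other and the third 7 coding genes away. Cd300a (Entrez 217303), an inhibitory receptor for phospholipids, had 33.2, 28.9 and 21.5 FPKM in overexpression libraries and 9.67, 12.8 and 11.9 FPKM in wild-type libraries. Cd300lb (Entrez 217304), an activating receptor that couples to DAP12, had 9.08, 10.1 and 9.99 FPKM in overexpression and 2.51, 2.62 and 4.36 FPKM in wild type. Both rose with no overlap, by 1.20 (SE 0.23, adjusted p = 0.00346) and 1.39 (SE 0.22, adjusted p = 0.00306), and both kept their calls without any 1 library. After centring they stood at 0.39 and 0.59.

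Cd300e (Entrez 217306), known in humans as an activating receptor of monocytes, was the only member that fell. It had 2.78, 1.19 and 2.25 FPKM with overexpression and 2.72, 7.75 and 7.56 FPKM in wild type. Wild-type library 1 lay inside the overexpression range, and the other wild-type libraries were well above it. The log2 difference was -1.12 (SE 0.37, adjusted p = 0.0198). It shrank to -0.90 when overexpression library 3 was left out, to -0.91 when wild-type library 2 was and to -0.93 when wild-type library 3 was, short of the threshold each time. Where either of those wild-type libraries was left out, limma called 0 members lower. In each case only 1 of the 2 lower members had an unadjusted limma p under 0.05, whatever the fold. Which of them it was is not given, so Cd300e may have missed the p-value as well as the fold. Voom called 2 lower without wild-type library 2 and 1 without wild-type library 3. After centring the difference was -1.93. The family members share sequence, so reads may have been shared here too. On the list of leukocyte immunoglobulin-like receptors and their phosphatases 23 of 59 genes were listed, 22 of them higher, and limma called 20 higher. The shares beside these are 9.59% of all genes the authors tested, listed as higher, and 36.5% of all listed genes, called higher by limma.

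Cd177 (Entrez 68891), a surface glycoprotein of neutrophils, was the other lower member. It had 2.01, 3.22 and 2.09 FPKM in overexpression libraries and 5.28, 5.82 and 5.59 FPKM in wild-type libraries. The wild-type values were nearly equal, and no overexpression value reached them. Limma placed it at -0.95 (SE 0.21, adjusted p = 0.0044), short of the fold, and past it without overexpression library 3 (-1.1). Voom called it lower, at -1.28. The neutrophil marker that was listed, Retnlg, was higher in overexpression, at 4.89 to 10.6 FPKM against 1.23 to 2.83 FPKM in wild type. The other 7 neutrophil markers are not listed. The direction of Cd177 was thus opposite to that marker, and its source in these libraries was not tested.

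Signalling adaptors and kinases downstream of such receptors rose as well. Tyrobp (Entrez 22177), which encodes DAP12, was the most abundant member, at 641, 699 and 431 FPKM in overexpression libraries and 242, 284 and 327 FPKM in wild-type libraries. Even so its log2 difference, 1.03 (SE 0.24, adjusted p = 0.00555), sat at the threshold, and leaving out overexpression library 2 gave 0.96, overexpression library 3 gave 0.89 and wild-type library 1 gave 0.92. Voom on all 6 libraries gave 0.97 and no call, and the authors' deposited table lists its log2 fold as 1.0. Prkcq (Entrez 18761), protein kinase C theta of T cell signalling, had 5.83, 5.44 and 6.90 FPKM with overexpression and 1.04, 2.06 and 2.12 FPKM in wild type, a log2 difference of 1.39 (SE 0.23, adjusted p = 0.00306) that held without each library. Ptpn22 (Entrez 19260), a phosphatase that restrains antigen receptor signalling, had 12.7, 8.66 and 9.84 FPKM in overexpression and 2.63, 4.04 and 4.01 FPKM in wild type, and rose by 1.32 (SE 0.23, adjusted p = 0.00311). After centring Tyrobp was at 0.22, Prkcq at 0.58 and Ptpn22 at 0.52. On the list of Fc receptors, ITAM adaptors and proximal kinases 27 of 53 genes were listed, all higher, and limma called 24. Among all genes the authors tested 9.59% were listed as higher, and limma called 36.5% of all listed genes higher.

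Of the C-type lectin receptors, Clec4e rose and Clec5a did not pass the fold. Clec4e (Entrez 56619), Mincle, a receptor for mycobacterial glycolipids and dead cells, had 8.48, 11.7 and 12.4 FPKM in overexpression libraries and 2.35, 3.30 and 2.82 FPKM in wild-type libraries. The gap between the groups was wide against the spread in each, with a log2 difference of 1.62 (SE 0.22, adjusted p = 0.00306) and 0.82 after centring. Clec5a (Entrez 23845), a myeloid receptor that signals through DAP12, had 5.59, 7.07 and 9.80 FPKM with overexpression and 3.65, 3.55 and 3.11 FPKM in wild type. Its log2 difference was 0.91 (SE 0.23, adjusted p = 0.00687) and 0.10 after centring, and it passed 1 without overexpression library 2 (1.07). Voom called it at 1.03, though not without overexpression library 4 or wild-type library 3. Of 59 genes on that list 21 were listed, all higher, and limma called 15. Beside this, 9.59% of all genes the authors tested were listed as higher, and limma called 36.5% of all listed genes higher.

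The antimicrobial effectors were Pglyrp1, Pglyrp2 and Prg2, and all 3 rose, although the groups of Prg2 overlapped and its call was lost without the trend and when any of 4 single libraries was left out, as given with its values further on. Pglyrp1 (Entrez 21946), a peptidoglycan-binding protein of granules, had 12.2, 14 and 9.60 FPKM in overexpression libraries and 4.33, 6.61 and 4.65 FPKM in wild-type libraries. Pglyrp2 (Entrez 57757), an amidase that cleaves peptidoglycan, had 2.00, 2.37 and 2.66 FPKM in overexpression and 0.451, 0.945 and 0.585 FPKM in wild type. In neither of these genes did the groups overlap. Their log2 differences were 1.07 (SE 0.23, adjusted p = 0.00441) and 1.02 (SE 0.17, adjusted p = 0.00311), and 0.26 and 0.21 after centring. Pglyrp1 was under 1 without overexpression library 3 (0.95) or wild-type library 1 (0.97), and Pglyrp2 without overexpression library 4 (0.95), wild-type library 1 (0.92) or wild-type library 3 (0.99). On their list 13 of 41 genes were listed, all higher and all called, where 9.59% of all genes the authors tested were listed as higher. Limma called 36.5% of all listed genes higher.

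**Figure D3:**
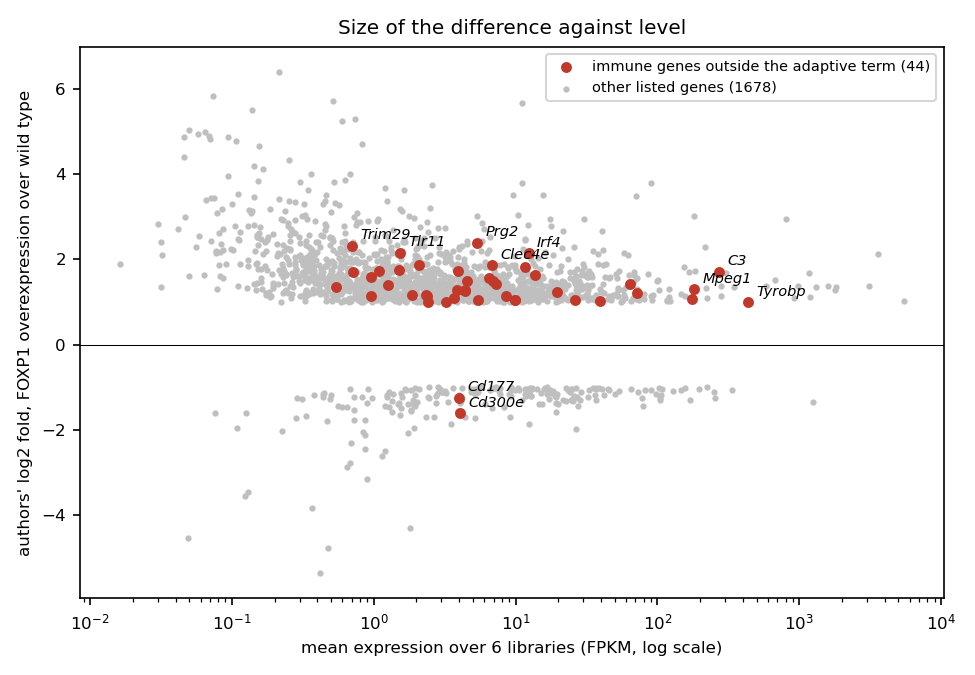
The authors' log2 fold, overexpression over wild type (vertical axis), against the mean FPKM over all 6 libraries (horizontal log axis), for the 44 members (red) and the 1678 other listed genes (grey). No gene lies between -1 and 1 because the table lists only folds of at least 2, and the members run from 0.539 to 437 FPKM, with log2 folds of at most 2.39.

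The members spanned almost 3 orders of magnitude in level. Their mean over all libraries ran from 0.539 FPKM in Zcchc3 to 437 FPKM in Tyrobp, with a median of 4.49 against 2.31 over all listed genes. There were 5 under 1 FPKM, 27 from 1 to 10 FPKM and 12 at 10 FPKM or more, of which C3, Serping1, Mpeg1 and Tyrobp were at 100 FPKM or more. The fewest fragments behind a value were 4, for Trim29 in wild-type library 3, and 6 members had a library with under 20 fragments.

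Libraries of overexpressing cells did not carry the rise equally. Relative to the wild-type mean, the members had a median log2 ratio of 1.02 in overexpression library 2, 0.94 in library 3 and 1.14 in library 4, against 0.77, 0.65 and 0.86 over all listed genes. Library 4 held the highest value for 21 of the 44 members, library 2 for 13 and library 3 for 10, and over all listed genes the shares followed the same order (46.5%, 28.6% and 24.9%). The ratio of the highest to the lowest overexpression library was under 1.5 in 16 members and had a median of 1.68. The median SD of log2(FPKM + 1) was 0.29 in overexpression and 0.21 in wild type, against 0.24 and 0.16 over all listed genes.

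In 5 members that ratio was over 3, namely Prg2, Irf4, Dcstamp, Pik3cg and Ssc5d. Irf4 (Entrez 16364), a transcription factor needed by plasma cells and activated T cells, had 31.5, 6.38 and 23.1 FPKM in overexpression libraries and 3.68, 4.42 and 5.10 FPKM in wild-type libraries. Prg2 (Entrez 19074), the major basic protein of eosinophil granules, had 18.9, 2.35 and 5.94 FPKM with overexpression and 1.43, 0.912 and 2.72 FPKM in wild type. Pik3cg (Entrez 30955), the catalytic p110 gamma subunit of leukocyte PI3-kinase, had 16.1, 4.91 and 11.3 FPKM in overexpression and 3.17, 4.35 and 4.10 FPKM in wild type. In all 3 genes library 2 was highest, library 4 next and library 3 close to wild type or, for Prg2, within its range. The same order was seen in the summed level of 5 plasma cell markers (Jchain, Mzb1, Xbp1, Prdm1 and Tnfrsf17). That sum was 4164, 349 and 1549 FPKM in overexpression libraries 2, 3 and 4 and 247 to 356 FPKM in wild-type libraries. Of 7 plasma cell markers 6 were listed and Sdc1 was not. Irf4 is itself 1 of the 6 and was left out of the sum. The order of libraries alone does not set the 3 genes apart. It was seen in 9 higher members, which also include Il2ra, Mpeg1, Nlrp3, Ptpn22, Spon2 and Tasl. The part of plasma cells in the 3 genes was not tested.

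Limma gave 1.74 for Irf4 (SE 0.50, adjusted p = 0.011), 1.58 for Prg2 (SE 0.59, adjusted p = 0.0305) and 1.15 for Pik3cg (SE 0.37, adjusted p = 0.0177), and 0.93, 0.77 and 0.35 after centring. The call of Irf4 held in limma without each library, although voom did not call it without wild-type library 1. Prg2 was called without overexpression library 3 or wild-type library 3 only. It was 0.90 without overexpression library 2, and missed the adjusted p, at 1.66, 1.54 and 1.36, without overexpression library 4, wild-type library 1 and wild-type library 2. Pik3cg was 0.82 without overexpression library 2, and missed the adjusted p at 1.05 without overexpression library 4 and 1.04 without wild-type library 1. In the authors' deposited table Prg2 has the largest log2 fold of all members, 2.39, with a q-value of 0.0037. Irf4 has 2.15.

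Dcstamp and Ssc5d followed other orders. Dcstamp (Entrez 75766), a membrane protein needed for the fusion of osteoclasts and macrophages, had 5.87, 2.62 and 1.34 FPKM in overexpression libraries and 0.992, 0.548 and 1.11 FPKM in wild-type libraries. It rose by 1.06 (SE 0.36, adjusted p = 0.0231), but by 0.64 without overexpression library 2 and 0.92 without wild-type library 2, and at 1.1 without wild-type library 1 it missed the adjusted p. Ssc5d (Entrez 269855), a soluble scavenger receptor that binds bacteria, had 5.94, 3.08 and 9.81 FPKM with overexpression and 2.07, 2.57 and 2.73 FPKM in wild type. At 0.97 (SE 0.34, adjusted p = 0.0246) it missed the fold, and it passed without overexpression library 3 (1.33) or wild-type library 3 (1.02). Library 4 was its highest, as it was for the fibroblast, T cell and mast cell marker sums. In those sums library 3 stood above library 2, unlike in Ssc5d.

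**Figure D4:**
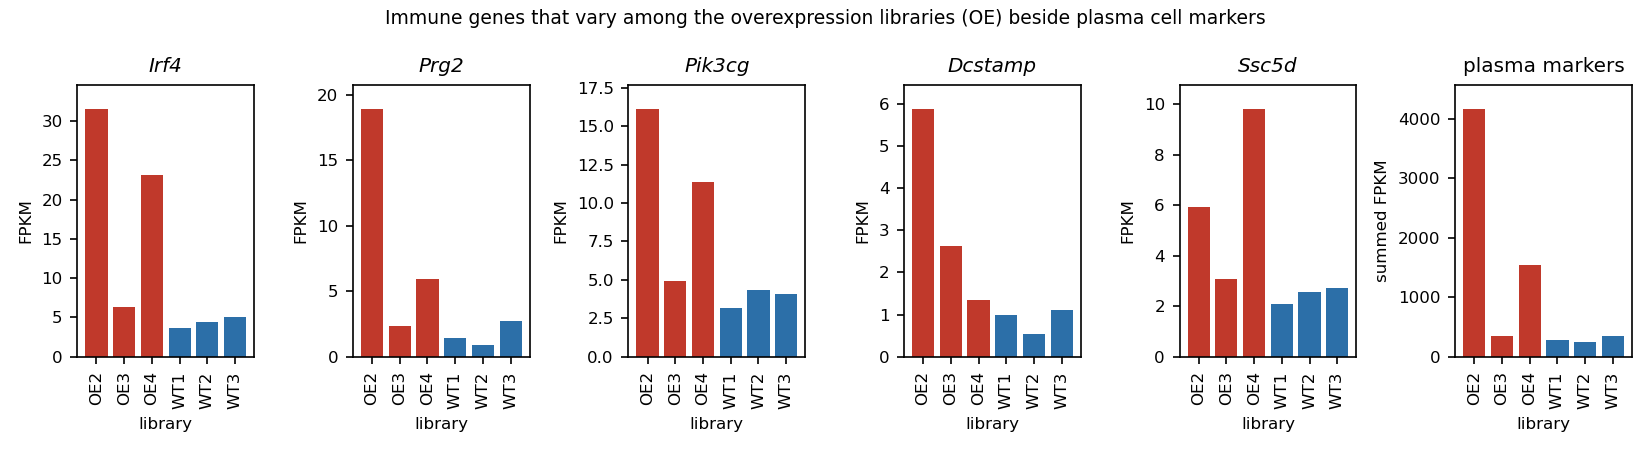
FPKM (bars, 1 per library) of the 5 members whose highest overexpression library (red, OE2 to OE4) was over 3 times the lowest, beside the summed FPKM of 5 plasma cell markers, with wild-type libraries (WT1 to WT3) in blue. Irf4, Prg2 and Pik3cg share the order of the markers, with library 2 above library 4 and library 3 near wild type. Dcstamp and Ssc5d do not. In 9 higher members in all, library 2 stood above library 4 and library 4 above library 3.

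Cytokine and cytokine receptor members were higher in every overexpression library than in any wild-type library, but none of the 3 passed the fold of the main test, and all 3 lay below 0 after centring. Il2ra (Entrez 16184), the alpha chain of the interleukin-2 receptor, had 5.01, 3.58 and 4.61 FPKM in overexpression libraries and 1.71, 2.08 and 2.48 FPKM in wild-type libraries. Il1rl2 (Entrez 107527), the receptor for interleukin-36, had 2.11, 3.53 and 4.18 FPKM with overexpression and 1.68, 1.36 and 1.62 FPKM in wild type. Il27 (Entrez 246779), the p28 subunit of interleukin-27, had 2.62, 2.46 and 4.92 FPKM in overexpression and 1.28, 1.56 and 1.42 FPKM in wild type. The log2 differences were 0.80 (SE 0.20, adjusted p = 0.00686), 0.71 (SE 0.23, adjusted p = 0.017) and 0.80 (SE 0.24, adjusted p = 0.0133). Centring moved them to -0.0039 (SE 0.16), -0.09 (SE 0.22) and -0.0085 (SE 0.21), each closer to 0 than its SE. Voom called Il2ra and Il27 but not Il1rl2. Both calls were lost without wild-type library 1, that of Il2ra also without overexpression library 2 and that of Il27 without overexpression library 4. Of 75 genes on the list 24 were listed, all higher, and limma called 13. For comparison, 9.59% of all genes the authors tested were listed as higher, and limma called 36.5% of all listed genes higher. The lists of chemokines, of the TNF superfamily and of leukocyte adhesion held no members.

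Outside the role lists, Pld3, Lrmp and Mr1 rose. Pld3 (Entrez 18807), an endolysosomal exonuclease that degrades DNA ligands of Toll-like receptors, had 98.2, 76.9 and 106 FPKM in overexpression libraries and 26.4, 39.3 and 34.2 FPKM in wild-type libraries. With a log2 difference of 1.47 (SE 0.23, adjusted p = 0.00306), and 0.67 after centring, it was called without each library in turn. Lrmp (Entrez 16970), an endoplasmic reticulum membrane protein of lymphocytes, had 12.8, 16.3 and 11.8 FPKM in overexpression and 4.53, 7.50 and 6.85 FPKM in wild type. Its difference of 1.02 (SE 0.24, adjusted p = 0.00536) dropped to 0.89 without overexpression library 3 and to 0.83 without wild-type library 1, and was 0.21 after centring. Mr1 (Entrez 15064), the MHC-related molecule that presents vitamin B metabolites to mucosal-associated invariant T cells, had 6.37, 5.54 and 8.50 FPKM with overexpression and 2.29, 1.66 and 2.99 FPKM in wild type. It rose by 1.24 (SE 0.24, adjusted p = 0.00346), was 0.43 after centring, and kept its call without any 1 library.

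A further 7 members were all higher in the authors' deposited table, with groups that did not overlap, and missed the fold of the main test with log2 differences from 0.46 to 0.91. They are given to account for members outside the naming rule. Marchf1 (Entrez 72925), a ubiquitin ligase that removes MHC class II from the surface, was the highest in level, at 4.65, 5.59 and 5.09 FPKM in overexpression libraries and 1.60, 2.33 and 2.93 FPKM in wild-type libraries. It passed the threshold without wild-type library 3 (1.05). Mfhas1 had 2.74, 3.20 and 3.97 FPKM with overexpression and 1.06, 1.60 and 1.53 FPKM in wild type. Spon2, a secreted matrix protein that binds bacteria, had 2.08, 1.47 and 1.52 FPKM in overexpression and 0.390, 0.344 and 0.737 FPKM in wild type. These 3 stayed above 0 after centring. Voom called all 3 higher, at 1.14, 1.18 and 1.76, as it did 81.6% of all listed genes. It also did so when adjusted over all genes the authors tested. Without wild-type library 1 the voom calls of Marchf1 and Mfhas1 were lost.

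The remaining 4 were near or under 1 FPKM. Trim29, of the tripartite motif family, had 0.718, 1.36 and 1.46 FPKM in overexpression libraries and 0.360, 0.234 and 0.0746 FPKM in wild-type libraries, for which the authors' deposited table gives a log2 fold of 2.33 and limma a log2 difference of 0.82, which was 0.02 after centring. Voom called Trim29 at 2.48, also without each library and when adjusted over all genes the authors tested (voom adjusted p = 0.0428). Its value in wild-type library 3 rested on 4 fragments. Olr1, a receptor for oxidised low-density lipoprotein, had 0.815, 1.26 and 1.96 FPKM with overexpression and 0.540, 0.615 and 0.560 FPKM in wild type. Ido1, an enzyme of tryptophan breakdown that is induced by interferon, had 0.671, 1.19 and 1.43 FPKM in overexpression and 0.151, 0.272 and 0.533 FPKM in wild type. For Zcchc3, known in humans as a cofactor of the DNA sensor cGAS, the values were 0.827, 0.523 and 1.0 FPKM in overexpression and 0.347, 0.173 and 0.360 FPKM in wild type. Olr1, Ido1 and Zcchc3 lay below 0 after centring (-0.26, -0.15 and -0.35), and voom called all 3 higher on the rebuilt counts, at 1.08, 1.80 and 1.34. Those calls were lost for Olr1 without overexpression library 4 or wild-type library 1, for Ido1 without wild-type library 1 and for Zcchc3 without wild-type library 2. Adjusted over all genes the authors tested, voom called none of the 3 (adjusted p = 0.156, 0.107 and 0.149).

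By annotation, 26 members also carried the innate immune response term and 19 the inflammatory response term, with 13 carrying both and 12 neither. The 2 lower members differed in this, since Cd177 carried the innate term and Cd300e neither. Limma's calls held without each library in turn for 13 of the 28 called members, among them C1s1, C3, Mpeg1, Gbp2b, Clec4e, Cd300a, Cd300lb, Ptpn22, Prkcq, Irf4, Pld3 and Mr1. When voom was adjusted over all 15689 genes the authors tested, it called 24 members higher and 1 lower. For neither of these counts was the share over all listed genes worked out, so they do not set the members apart.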

How the data were processed

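Poly(A) RNA was sequenced as paired ends. Per the submitters' processing notes, Trimmomatic, HISAT2 and DESeq were used, with no versions given. The notes name the build hg19 although the genes are mouse genes, so no coordinates were taken from the file. Which counter and annotation were used is not given in the sources used here. Deposited values comprise 1 expression value per gene and library, taken as FPKM computed by the authors, because, together with the group means, they convert to fragment counts that were whole (within 0.01) for 100% of 10332 values. Per the file headers, further columns made by the authors are each group's mean normalised signal, a fold ratio, its log2 value, a p-value and a q-value.

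Overexpression columns carry the numbers 2, 3 and 4. No sample title has the number 4, so that column was kept as an overexpression library. No other sample column was present (0 unused). Separate cultures are not stated in the labels, and p-values therefore cover no more than the variation among these samples, possibly technical. The number of genes the authors tested, 15689, was worked out from their p- and q-values.

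Limma 3.58.1 in R 4.3.3, with a trend, was fitted to log2(FPKM + 1) of all 1722 listed genes, with Benjamini-Hochberg adjustment. It was checked on simulated counts in which most genes were unchanged, unlike this table, where the authors had called every gene. That check therefore does not vouch for the calls here. Alternatives were a pseudocount of 0.1, no trend, a filter of 1 FPKM, median centring, a replicate block, each library left out, and, added after the data had been seen, voom on the rebuilt counts. Voom was used because the unit proved to be FPKM with whole counts behind it. Members, role lists and markers were chosen with earlier results of these data known. In each list the 3 members highest in mean level were named, with the 5 highest outside the lists, the lower members, and those of largest fold (3) or spread (3). The 12 others were added to account for all members, except that 1 of them is counted but its own values are not reported here.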

Additional observations from a re-analysis of the deposited data

How the results depend on the processing

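On the log2(FPKM + 1) scale 27 members were called higher and 1 lower, with a median difference of 1.03. Shares of all listed genes called were worked out only for this test (36.5% higher) and voom on all 6 libraries (81.6% higher). Counts under the other settings therefore do not set the members apart from the listed genes. The count of higher calls was 41 with a pseudocount of 0.1 and 14 with the replicate block. After median centring it was 0 (10 at an unadjusted p under 0.05, whatever the fold). With single libraries left out it ran from 15 (without wild-type library 1) to 28. Voom on the rebuilt counts called 39, and from 25 (without wild-type library 1) to 39 with a library left out. The count of lower calls was 2 with a pseudocount of 0.1, after centring and in voom. With single libraries left out it ran from 0 to 1, and in voom from 1 (without wild-type library 3) to 2. It was 0 without wild-type library 2 or 3, with 1 at an unadjusted p under 0.05 each, whatever the fold. The median difference was 1.29 with a pseudocount of 0.1, 0.22 after centring, 0.92 with the replicate block and 1.28 in voom, and 0.93 to 1.13 with a library left out. No trend and a filter of 1 FPKM on the mean moved these counts by less than 1.5 times. Centring turned the sign of Ido1 (-0.15), Il1rl2 (-0.093), Il27 (-0.0085), Il2ra (-0.0039), Naip6 (-0.064), Nlrp1b (-0.069), Olr1 (-0.26), Tasl (-0.042) and Zcchc3 (-0.35). None of these 9 genes had a limma adjusted p under 0.05 after centring. By construction centring sets the median of the listed genes, most of them higher, to 0, and a larger pseudocount draws low genes under the fold. The replicate block used only the numbers 2 and 3, which both groups have. Deviations of same-numbered libraries correlated at 0.021 and 0.076. These 2 values cannot show whether libraries were paired or made in batches, and the labels name neither. The block also left out 2 libraries. Voom was added once the data were known. Groups of 3 libraries bound every value here, and 6 members had a library with under 20 fragments.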
